A study of Mus musculus with 6 samples.

Results

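Integrins are cell surface receptors made of an alpha and a beta chain, and focal adhesions are the protein assemblies that tie them to the actin cytoskeleton. The 35 genes described here are 16 integrin chains and 19 adaptors, kinases and actin linkers of focal adhesions, taken by symbol from a list of such genes. The deposited FPKM table lists 34 of them among its 14408 genes, and Itga2 is not listed there. FPKM scales the fragments of a gene by its length and by the size of the library, so levels can be set side by side between genes.

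The 6 libraries carry the label heart tissue, and 3 belong to L-proline treatment and 3 to PBS, the vehicle. The mice were C57BL/6J males. L-proline was injected into the peritoneum at 300 mg/kg per day for 4 to 8 weeks. All mice, the PBS ones included, had HFpEF (heart failure in which the ejection fraction is preserved) induced beforehand: from 8 weeks of age they ate a high-fat diet and drank L-NAME, which blocks nitric oxide synthesis, at 0.5 g/L for 8 to 12 weeks. The labels do not say that each library is a separate animal, so p-values measure the spread between libraries, which may be technical. The text of the series names ferroptosis and PPARγ signalling as the subjects of the profiling.

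Most markers of heart muscle cells were at or near 0, which goes against a label of left ventricle. Of 13 cardiomyocyte markers 6 were listed and 1, Tnnt2, reached a mean of 1 FPKM, while the sarcomere gene Ttn peaked at 0.00880 FPKM in any library. Fibroblast markers had a median of 72.8 FPKM over the 7 listed of 10, pericyte and smooth muscle markers 26.6 FPKM over the 8 listed of 10, and endothelial markers 0.0558 FPKM over the 5 listed of 10. The pericyte and smooth muscle list was split: Acta2, Des, Tagln, Pdgfrb and Cnn1 had means above 1 FPKM. Its Rgs5, Myh11 and Vtn peaked at 0.145, 0.0459 and 0.0764 FPKM in any library, and Kcnj8 and Abcc9 were not listed. Library totals recovered from the FPKM steps ran from 34990473 to 37498030 fragments, which makes 3 fragments on a gene of 1 kb worth 0.0800 to 0.0857 FPKM. Which cells of the heart, or cells grown from it, gave this RNA was not tested, so the levels below cannot be read as those of whole ventricle, nor the difference between groups as that of whole ventricle in treated mice. In bulk RNA, fewer cells of a type and less RNA per cell cannot be told apart.

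Integrin alpha chains largely set which matrix protein is bound. The tails of the beta chains recruit talin and kindlin, which activate the receptor, and the complex of the pseudokinase ILK with PINCH (Lims1) and parvin (Parva). Vinculin, alpha-actinin and filamin carry force to actin, the kinases FAK (Ptk2) and Src signal through paxillin (Pxn) and p130Cas (Bcar1), and zyxin, LPP and VASP sit where actin fibres are under tension. In the heart, fibroblasts use these assemblies to grip and sense the matrix they make.

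Differences were tested with limma on log2(FPKM + 1) over the 10500 genes with a mean of at least 1 FPKM, with Benjamini-Hochberg adjustment over all of them and a threshold of 0.05. Every log2 fold change below is L-proline over PBS on that scale, given with its standard error, and it understates changes of low genes. Levels are mean FPKM ± SD with n = 3 per group.

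With L-proline, 3 integrin alpha chains (Itga3, Itga6, Itga11), the beta chain Itgb3 and the parvin gene Parva fell, and no member rose. Thus 5 of the 31 tested members were lower, or 16.1%, against 12.1% of all tested genes (19.6% passed in either direction). By limma, 0 were higher, against 7.5% of all tested genes. At an unadjusted p under 0.05, 1 member was higher and 8 were lower, against 1398 and 2289 of all 10500 tested genes. Limma's voom on recovered fragments also gave 0 higher and 5 lower, against 745 and 1293 of all tested genes. Split by kind, 4 of the 12 tested integrin chains fell (33.3%), and 1 of the 19 adaptors and actin linkers fell (5.26%). The median log2 fold change was -0.16 over the integrin chains and -0.09 over the adaptors and linkers, beside -0.06 over all tested genes. With the GC trend of each library removed, an alternative chosen after seeing the data, these medians were -0.09 and -0.06, beside 0.00268 over all tested genes. The difference between these classes was not tested, and it varied with the processing. With equal sums 5 adaptors and linkers and 4 integrin chains were lower, and with the replicate number as a block 4 and 4. With sample weights they were 4 and 6, and without PBS 3 they were 0 and 4. Median-of-ratios and quantile scaling gave 1 and 4, as in the main fit. The count of lower members was 9 with library sums made equal, against 1695 of all 10501 genes tested there. It was 10 with sample weights, against 2873 of 10500, and 9 without L-proline 1, against 1805 of 10488.

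Over all genes 788 were higher and 1268 lower. Scaled by median of ratios, 993 were higher and 918 lower, and with quantile normalization 1079 were higher and 1015 lower, with 5 members lower and 0 higher in either case. Without PBS 1 the counts over all genes were 392 higher and 584 lower, without PBS 2 they were 592 and 843, and without PBS 3 they were 366 and 508.

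**Figure D1:**
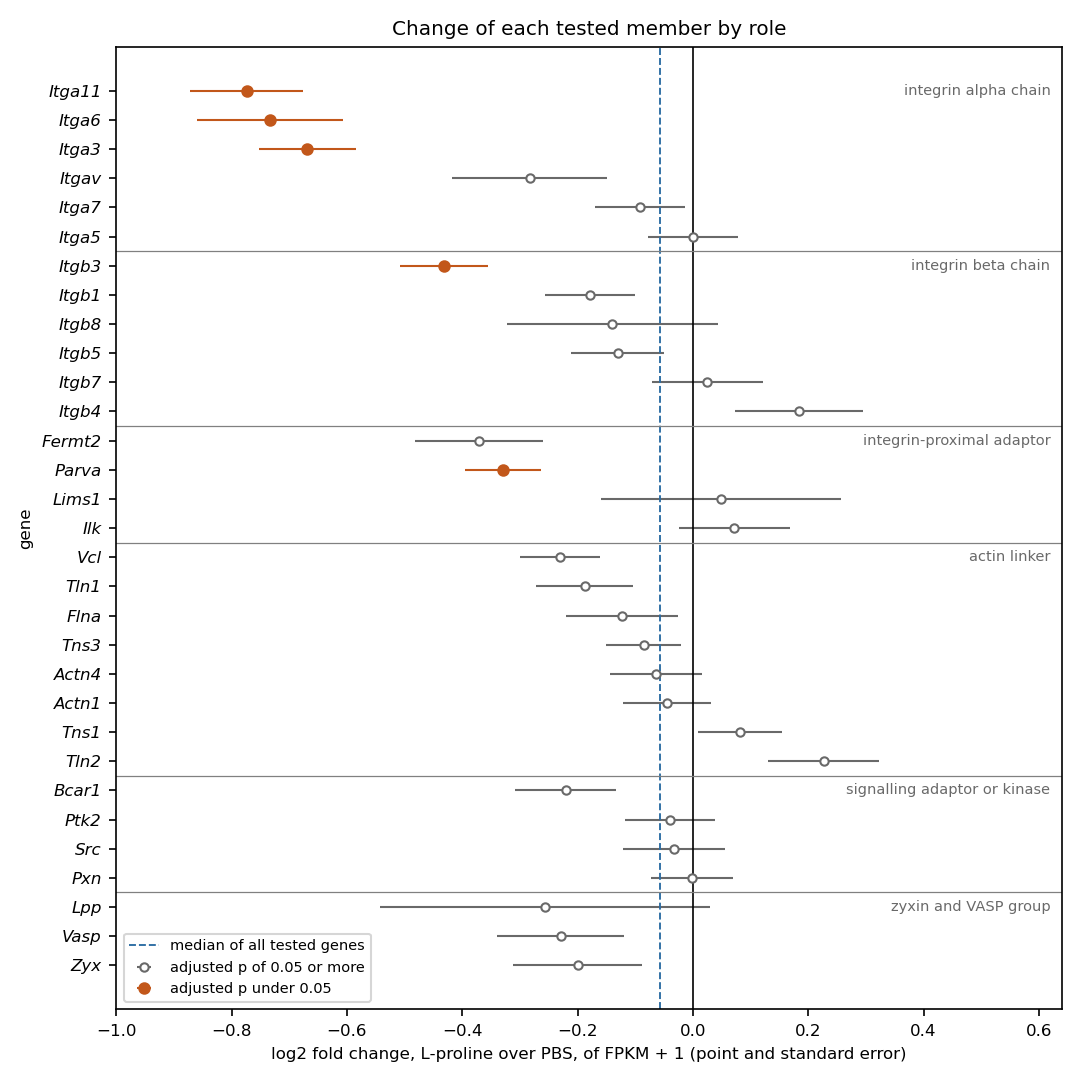
Log2 fold change of L-proline over PBS for the 31 tested genes, grouped by role, with bars of 1 standard error from limma and filled points for an adjusted p under 0.05. The filled points are Itga11, Itga6, Itga3, Itgb3 and Parva, all left of the dashed median of all tested genes at -0.06.

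Itga3, a laminin-binding chain, had the smallest p of the members, close to that of Itga11. It had 24.8, 27.0 and 30.1 FPKM in L-proline 1, 2 and 3, against 45.0, 44.0 and 42.7 FPKM in PBS 1, 2 and 3. All L-proline libraries thus lay well below all PBS libraries, by -0.67 ± 0.08 on the log2 scale (adjusted p = 0.00176 in limma).

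Itga6, another laminin-binding chain that pairs with Itgb1 or Itgb4, had 7.71, 6.00 and 5.67 FPKM in the L-proline libraries and 12.8, 10.1 and 11.2 FPKM in the PBS libraries. The groups again did not overlap, and the difference was -0.73 ± 0.13 (adjusted p = 0.00665 in limma). Itga7, the third laminin-binding chain and the one typical of muscle cells, did not pass, with 45.8, 44.7 and 52.1 FPKM under L-proline and 52.2, 50.8 and 49.0 FPKM under PBS (-0.09 ± 0.08, adjusted p = 0.431). Its L-proline 3 value was among the highest of the 6, so the groups overlapped.

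The collagen-binding chain Itga11, known from fibroblasts, had 2.07, 1.75 and 2.34 FPKM in L-proline 1, 2 and 3. In PBS 1, 2 and 3 it had 4.36, 4.06 and 4.19 FPKM. That was the lowest log2 fold change of any tested member, -0.77 ± 0.10 (limma, adjusted p = 0.00184), on 328 to 463 fragments per L-proline library and 784 to 877 per PBS library. Itga1, the other listed collagen-binding chain, was too low to be tested, at 43, 26 and 20 fragments under L-proline and 80, 44 and 78 under PBS. Its values of 0.0909 to 0.196 FPKM in L-proline libraries lay just under the 0.205 to 0.357 FPKM of PBS libraries.

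Of the 5 genes that fell, Itga3 and Itga11 have a promoter in the RefSeq table used (assembly GRCm38.p6), and they are shown because both fell, as chains for different ligands. Each window runs from 250 bases before to 50 bases after an annotated start, 5′ to 3′ on the gene's strand. Capitals mark the AP-1 motif TGANTCA and the GC box GGGCGG, searched on both strands with the TEAD motif CATTCC and the SRF-binding CArG box. No marked matches overlap. The windows are chr11:95076665-95076964 (minus strand) and chr11:95069149-95069448 (minus strand) for the starts of Itga3, and chr9:62677605-62677904 (plus strand) for Itga11.
Itga3 upstream start: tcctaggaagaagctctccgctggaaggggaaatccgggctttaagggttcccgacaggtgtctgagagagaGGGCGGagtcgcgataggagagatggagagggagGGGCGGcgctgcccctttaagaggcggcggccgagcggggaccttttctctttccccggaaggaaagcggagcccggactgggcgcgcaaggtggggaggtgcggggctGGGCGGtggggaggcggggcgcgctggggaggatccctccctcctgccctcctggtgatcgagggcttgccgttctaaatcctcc
Itga3 downstream start: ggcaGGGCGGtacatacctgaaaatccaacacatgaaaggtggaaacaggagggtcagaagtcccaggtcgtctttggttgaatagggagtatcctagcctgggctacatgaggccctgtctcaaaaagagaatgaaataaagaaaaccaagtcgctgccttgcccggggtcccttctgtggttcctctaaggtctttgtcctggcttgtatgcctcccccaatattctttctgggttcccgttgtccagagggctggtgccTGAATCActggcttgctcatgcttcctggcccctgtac
Itga11: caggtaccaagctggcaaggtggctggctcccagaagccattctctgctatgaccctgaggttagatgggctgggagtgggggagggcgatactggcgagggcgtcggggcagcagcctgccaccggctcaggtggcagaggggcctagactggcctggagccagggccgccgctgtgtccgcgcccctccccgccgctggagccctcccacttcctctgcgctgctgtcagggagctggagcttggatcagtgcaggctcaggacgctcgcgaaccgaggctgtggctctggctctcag

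The upstream Itga3 window holds 3 GC boxes, the downstream one holds 1 GC box and 1 AP-1 motif, and the Itga11 window holds none of these motifs. Over the 33 windows of the 27 members in the table, the TEAD motif was in 5 (15.2%), against 14.7% of all 32851 windows. The AP-1 motif was in 3 member windows (9.09%, against 7.81% of all), the GC box in 21 (63.6%, against 35.7%) and the CArG box in 2, those of Fermt2 and Vcl (6.06%, against 1.63%). A match describes letters and not binding. The windows of all genes were not limited to genes expressed here, and differences between these shares were not tested.

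Among chains that bind ligands with an RGD sequence, Itga5, the main fibronectin receptor chain, had 85.8, 90.9 and 103 FPKM in the L-proline libraries and 93.4, 93.2 and 92.1 FPKM in the PBS libraries. The L-proline values enclosed the PBS ones, and the difference of 0.00 ± 0.08 did not pass (adjusted p = 0.998 in limma). It was the most abundant alpha chain in every library. Itgav, which pairs with several beta chains, had 34.1, 25.9 and 24.8 FPKM under L-proline and 37.2, 29.9 and 36.2 FPKM under PBS. Its groups overlapped through L-proline 1 and PBS 2 (-0.28 ± 0.13, adjusted p = 0.172). Without L-proline 1 the Itgav value was -0.42 with an adjusted p of 0.0213 by limma, over a range of 0.00454 to 0.404 across the alternatives. Itga8 was seen in 1 to 5 fragments per library. Itga4, a chain best known from leukocytes, had 19 to 43 fragments and was not tested either.

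**Figure D2:**
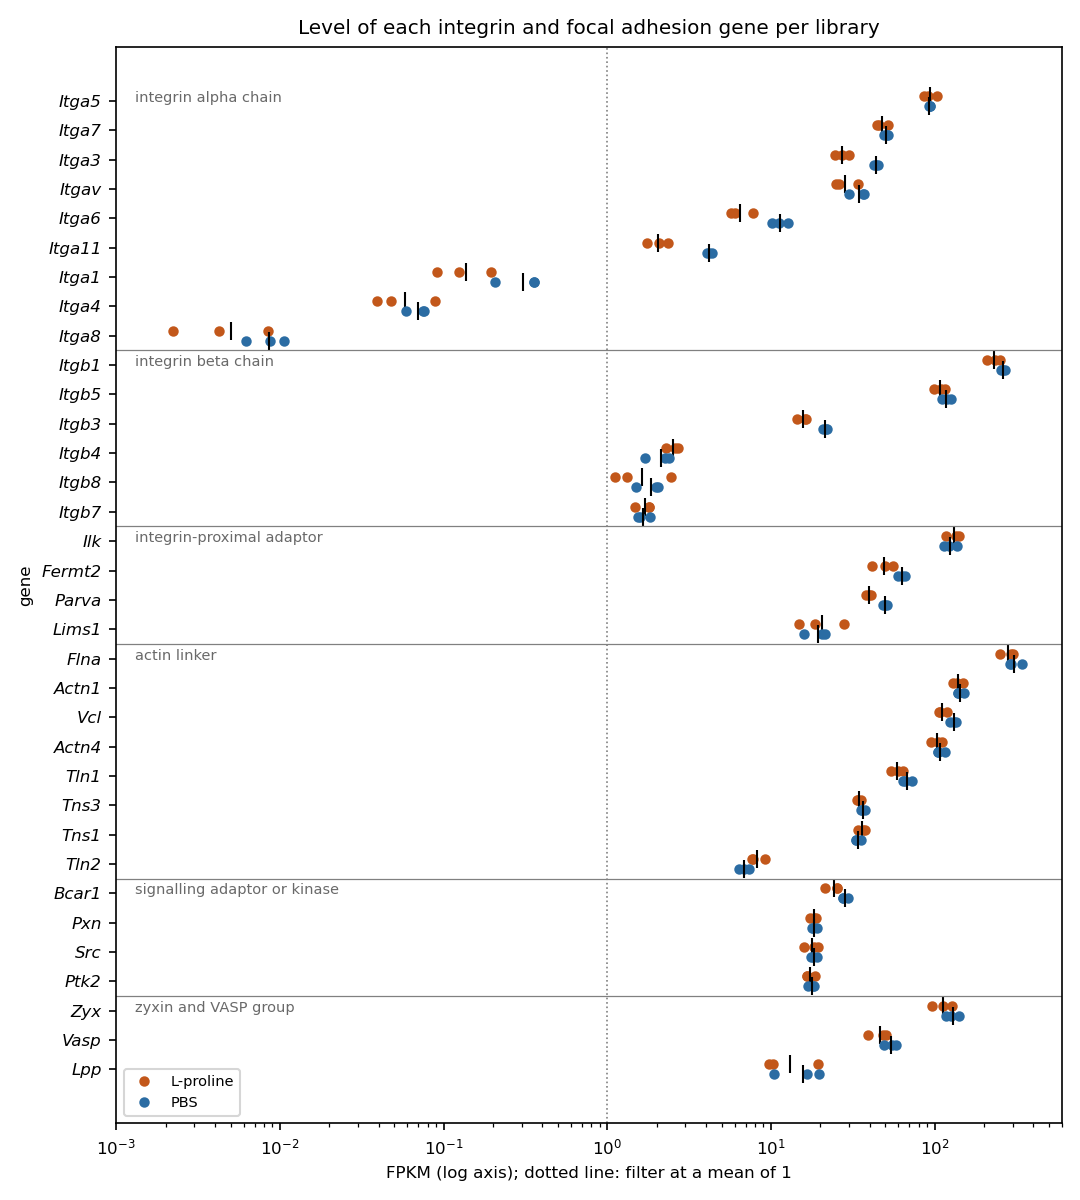
FPKM of each of the 34 listed genes on a log axis, 1 point per library with L-proline above PBS and a tick at the group mean, grouped by role. The groups do not overlap for 12 of the 31 tested genes (38.7%, against 40.1% of all tested genes), Itga3, Itga6, Itga11, Itgb3 and Parva among them. They do not overlap for the untested Itga1 either. The levels run from a mean of 0.00676 FPKM in Itga8 to 295 FPKM in Flna over all libraries.

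The alpha chain transcripts were differently made up in the groups. Laminin-binding chains took 39.0%, 39.6% and 40.3% of the summed alpha chain FPKM in L-proline 1, 2 and 3, against 44.8%, 45.2% and 43.6% in PBS 1, 2 and 3. Collagen-binding chains took 1.07 ± 0.0993% under L-proline and 1.89 ± 0.0509% under PBS. The RGD-binding share was correspondingly larger, at 59.3 ± 0.656% under L-proline and 53.5 ± 0.771% under PBS. Itga5 alone gave 45.4 ± 2.29% under L-proline and 39.1 ± 1.02% under PBS. These shares add to a fixed total, so a lower Itga3 raises the share of Itga5 with no rise in its FPKM, and they carry no test. The summed alpha chain FPKM was 205 ± 11.4 under L-proline and 238 ± 6.65 under PBS.

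**Figure D3:**
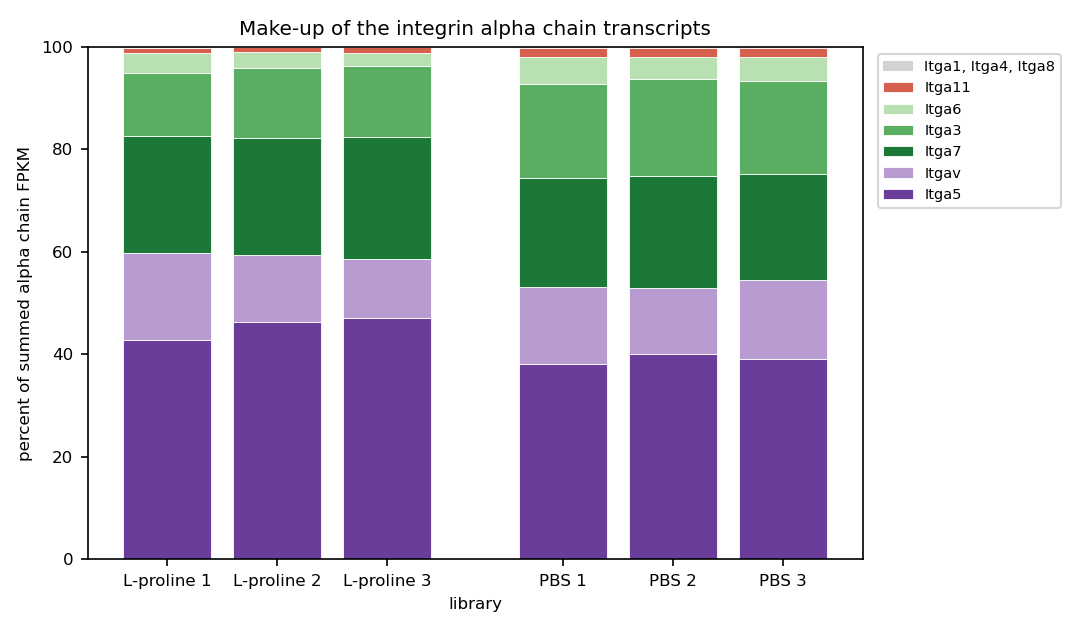
Stacked bars of the share of each alpha chain in the summed alpha chain FPKM of a library, with L-proline 1 to 3 left of PBS 1 to 3. The greens are the laminin-binding chains Itga7, Itga3 and Itga6, and Itga3 took 13.3% on average under L-proline and 18.5% under PBS.

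Of the beta chains, Itgb3, the vitronectin receptor chain that pairs with Itgav, fell. Its values were 14.4, 16.2 and 16.3 FPKM in L-proline libraries and 21.9, 20.8 and 21.6 FPKM in PBS libraries, with a clear gap between the groups (-0.43 ± 0.08, limma adjusted p = 0.00757). Itgb5, which shares the Itgav partner, had 99.1, 109 and 115 FPKM under L-proline and 110.4, 125 and 118 FPKM under PBS and did not pass (-0.13 ± 0.08, adjusted p = 0.284). Itgb3 made up 12.7 ± 0.291% of the sum of Itgb3 and Itgb5 under L-proline and 15.4 ± 1.13% under PBS.

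Itgb1, the common partner of most alpha chains, was the most abundant integrin chain. It had 250.3, 232 and 209 FPKM in L-proline 1, 2 and 3 and 269, 253 and 260.0 FPKM in PBS 1, 2 and 3. The groups were ordered without overlap by a margin of a few FPKM, and the difference of -0.18 ± 0.08 did not pass (adjusted p = 0.146 in limma; 0.0257 to 0.364 over the alternatives). The adjusted p was 0.0486 without L-proline 1. The share of Itgb1 in the summed beta chain FPKM was 64.0 ± 3.65% under L-proline and 64.2 ± 1.80% under PBS.

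The remaining beta chains were low. Itgb4, the partner of Itga6 in hemidesmosomes, had 2.53 ± 0.205 FPKM under L-proline and 2.12 ± 0.368 FPKM under PBS (0.18 ± 0.11, adjusted p = 0.275). Itgb7, best known from lymphocytes, had 1.69 ± 0.189 FPKM under L-proline and 1.64 ± 0.152 FPKM under PBS. Itgb8, a receptor chain for latent TGF-beta, had 2.44 FPKM in L-proline 1 but 1.32 and 1.12 FPKM in L-proline 2 and 3, a spread wider than that of PBS (1.49 to 2.04 FPKM; -0.14 ± 0.18, adjusted p = 0.617).

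Close to the membrane, Parva was the member that fell among the 4 adaptors of this role. Parva, alpha-parvin, which joins ILK to actin, had 37.8, 40.9 and 39.7 FPKM under L-proline and 48.4, 51.2 and 49.8 FPKM under PBS. The groups were narrow and apart (-0.33 ± 0.07, limma adjusted p = 0.0118), though without PBS 3 the adjusted p was 0.0670 (0.00216 to 0.0670 over the alternatives). Ilk itself had 117, 134 and 141 FPKM under L-proline and 114, 137 and 122 FPKM under PBS, with groups that overlapped (0.07 ± 0.10, adjusted p = 0.628). Lims1 had 27.9, 18.7 and 14.9 FPKM under L-proline, a range that enclosed the 16.02 to 21.3 FPKM of PBS (0.05 ± 0.21, adjusted p = 0.888). Fermt2, kindlin-2, had 55.9, 49.5 and 41.2 FPKM under L-proline and 66.2, 59.6 and 63.5 FPKM under PBS. It missed the threshold at -0.37 ± 0.11 (limma, adjusted p = 0.0503; 0.00267 to 0.163 over the alternatives), and its adjusted p was 0.0106 without L-proline 1.

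Among the 8 actin linkers, limma called 0 in either direction (against 19.6% of all tested genes), and voom also called 0. At an unadjusted p under 0.05, 1 was higher and 1 lower, against 1398 and 2289 of all 10500 tested genes. Vinculin (Vcl), which locks onto stretched talin, came nearest, with 118, 108 and 106 FPKM under L-proline and 136, 125 and 131 FPKM under PBS. The groups did not overlap (-0.23 ± 0.07, adjusted p = 0.0521; 0.00399 to 0.192 over the alternatives), and the adjusted p was 0.0246 without L-proline 1. Talin-1 (Tln1) had 59.3 ± 4.77 FPKM under L-proline and 67.6 ± 4.59 FPKM under PBS (-0.19 ± 0.08, adjusted p = 0.155). Talin-2 (Tln2), its less abundant paralog, leaned the other way, at 7.68, 7.77 and 9.26 FPKM under L-proline and 6.86, 7.36 and 6.42 FPKM under PBS (0.23 ± 0.10, adjusted p = 0.137). Tln2 took 12.4%, 10.9% and 13.4% of the summed talin FPKM in L-proline 1, 2 and 3. In PBS 1, 2 and 3 it took 9.46%, 9.18% and 9.08%, below every L-proline library.

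Filamin A (Flna), which crosslinks actin and binds beta tails, was the most abundant member, with 251.01, 302 and 294 FPKM under L-proline and 289.7, 341 and 291 FPKM under PBS. Its difference lay within the spread of the libraries (-0.12 ± 0.10, adjusted p = 0.396). The alpha-actinins Actn1 and Actn4 had log2 fold changes of -0.04 ± 0.08 and -0.06 ± 0.08, and the tensins Tns1 and Tns3 of 0.08 ± 0.07 and -0.09 ± 0.07. None of these 4 passed, with adjusted p-values of 0.382 to 0.709 in limma.

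The signalling members passed in neither direction: by limma 0 of 4 were called (against the same 19.6%), and 0 by voom. Of them 1, Bcar1, was lower at an unadjusted p under 0.05, against 2289 of all 10500 tested genes. Bcar1, a scaffold phosphorylated when cells are stretched, had 21.3, 25.5 and 25.5 FPKM under L-proline and 27.4, 29.5 and 27.6 FPKM under PBS (-0.22 ± 0.09, adjusted p = 0.117). Ptk2 had 17.2 ± 1.08 FPKM under L-proline and 17.7 ± 0.851 FPKM under PBS. Src had 17.8 ± 1.76 FPKM under L-proline and 18.2 ± 0.770 FPKM under PBS. Pxn had 18.2 ± 0.742 FPKM under L-proline and 18.2 ± 0.664 FPKM under PBS. These 3 genes had almost the same level per length and overlapping groups. Zyx, Vasp and Lpp, regulators of actin at strained fibres, had log2 fold changes of -0.20 ± 0.11, -0.23 ± 0.11 and -0.26 ± 0.29. Zyx, the most abundant of them, had 96.4, 127 and 113 FPKM under L-proline and 118, 142 and 126 FPKM under PBS, with groups that overlapped. Limma called 0 of these 3 (against the same 19.6%), and voom also called 0. An unadjusted p under 0.05 was found for 0 of them, against 3687 of all 10500 tested genes.

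Counting by overlap alone, 12 of the 31 tested members (38.7%) had groups that did not overlap, against 40.1% of all tested genes. In 11 of them all L-proline libraries lay below all PBS libraries (35.5%, against 24% of all tested genes), and in 1, Tln2, they lay above (3.23%, against 16%). Summed over the 15 listed integrin chains, FPKM was 565 ± 5.47 under L-proline and 643 ± 7.44 under PBS. Summed over the 19 adaptors and linkers it was 1190, 1318 and 1278 in L-proline 1, 2 and 3 and 1330.0, 1442 and 1341 in PBS 1, 2 and 3. Both sums were lower in every L-proline library than in every PBS library, by a narrow margin for the adaptors and linkers.

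The libraries also differed along the GC content and the length of genes, and several members varied between libraries in a like pattern. With tested genes split into quintiles by GC content, the median departure of the richest quintile (median GC 57.9%) minus that of the poorest (41.4%) was -0.27, 0.05 and 0.37 on the log2 scale in L-proline 1, 2 and 3. It was -0.15, 0.13 and -0.12 in PBS 1, 2 and 3. With quintiles by gene length recovered from the FPKM steps, the longest minus the shortest was 0.13, -0.15 and -0.19 in L-proline 1, 2 and 3. In PBS 1, 2 and 3 that length difference was 0.17, -0.09 and 0.13. The tested members poorest in GC were Itgb8, Lims1, Lpp and Itgav, at 40.4% to 43.5%, with recovered lengths of 8757, 10800, 21262 and 7000 bases. All of these genes were higher in L-proline 1 than in L-proline 2 and 3, and higher in PBS 1 and 3 than in PBS 2. Lpp, for example, had 19.4, 10.2 and 9.68 FPKM under L-proline and 19.7, 10.4 and 16.7 FPKM under PBS, and the largest within-group SD of the tested members, 0.48 on the log2 scale. Whether these genes followed GC content or length was not tested, and no alternative removed the length trend. With each library's GC trend removed, Itga3, Itga6, Itga11, Itgb3 and Parva still passed as lower. In that fit Fermt2 was at -0.28 (adjusted p = 0.0230) and Bcar1 at -0.20 (0.0338), both lower, and Tln2 at 0.26 (0.0419), higher.

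**Figure D4:**
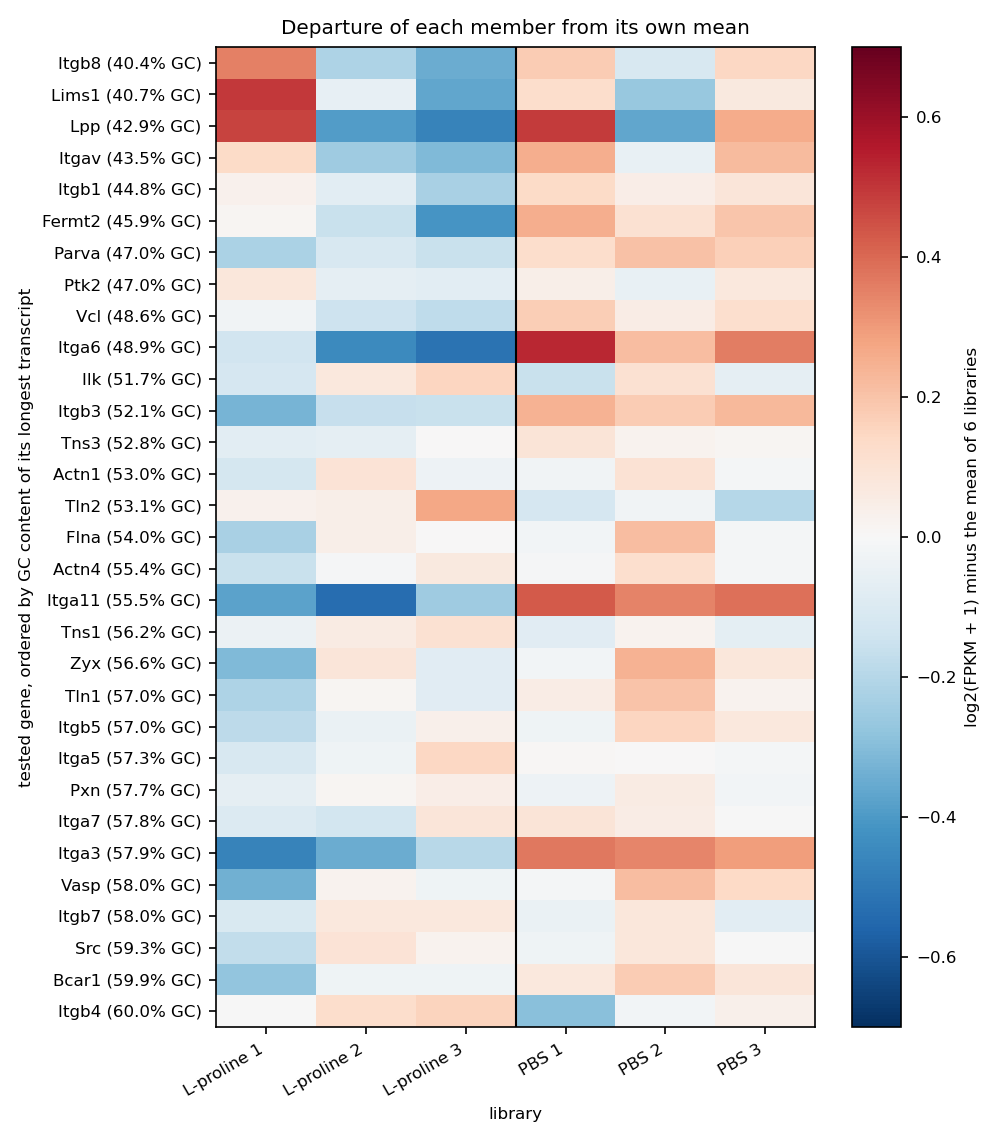
Departure of log2(FPKM + 1) of each tested gene from its own mean over 6 libraries, with genes ordered by GC content and L-proline left of PBS. Itga3, Itga6, Itga11 and Itgb3 split by group, while Itgb8, Lims1 and Lpp, at 40.4% to 42.9% GC, split by library within both groups.

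Summed markers of several other cell types differed between the groups without overlap. Mesothelial and epithelial markers, 4 of 9 listed and 2 with a mean of at least 1 FPKM (Msln and Krt19), summed to 26.3 to 27.5 FPKM in L-proline libraries and 51.2 to 52.6 FPKM in PBS libraries. Fibroblast markers, 7 of 10 listed, summed to 2774 to 3140 FPKM under L-proline and 2052 to 2096 FPKM under PBS, nearly all of it the collagens Col3a1, Col1a2 and Col1a1. The fibroblast receptor Pdgfra went the other way without overlap, at 5.86 to 6.12 FPKM under L-proline and 7.32 to 8.22 FPKM under PBS. Ddr2 averaged 19.8 FPKM under L-proline and 23.2 FPKM under PBS with overlapping groups. Dcn was higher under L-proline without overlap, at 27.1 to 40.7 FPKM against 20.7 to 24.3 FPKM under PBS. Postn averaged 86.9 FPKM under L-proline and 58.8 FPKM under PBS with overlapping groups. The T and NK cell list, 2 of 9 listed, summed to 69.0 to 96.1 FPKM under L-proline and 31.5 to 32.1 FPKM under PBS, nearly all of it the chemokine Ccl5. Cardiomyocyte markers summed to 13.8 to 16.4 FPKM under L-proline and 31.6 to 33.0 FPKM under PBS, nearly all of it Tnnt2. The sums overlapped for macrophage and myeloid markers, 6 of 10 listed. They were 21.9 to 25.5 FPKM under L-proline and 19.8 to 22.2 FPKM under PBS. Most of this was Cd14, whose groups overlapped, as did those of Lyz2, Csf1r and Mrc1. Cd68 was higher under L-proline without overlap, at 4.96 to 5.52 FPKM against 2.61 to 3.68 FPKM under PBS. Cx3cr1 was too, at no more than 0.116 FPKM in any library. Sums of pericyte and smooth muscle markers, 8 of 10 listed, overlapped at 1048 to 1268 FPKM under L-proline and 1165 to 1295 FPKM under PBS. Most of this was Acta2, whose groups overlapped, as did those of Des, Pdgfrb and Cnn1. Tagln was lower under L-proline without overlap, at 54.6 to 75.0 FPKM against 77.6 to 92.6 FPKM under PBS. Endothelial marker sums also overlapped, at 0.829 to 1.03 FPKM under L-proline and 0.929 to 1.04 FPKM under PBS. The part of these cell types in the lower Itga3, Itga6, Itga11, Itgb3 and Parva was not tested.

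Other integrins and membrane partners of integrins had 2 higher and 3 lower among 20 tested genes (10% and 15%, against 7.5% and 12.1% of all tested genes). The smallest p was that of syndecan-4 (Sdc4), a proteoglycan that assists fibronectin receptors, at 81.7 ± 9.35 FPKM under L-proline and 152 ± 4.17 FPKM under PBS (-0.89 ± 0.09, limma adjusted p = 0.000726). The urokinase receptor Plaur fell to 21.8 ± 0.409 FPKM under L-proline, against 30.6 ± 1.60 FPKM under PBS. The third that fell was the hyaluronan receptor Cd44 (-0.43 ± 0.11, adjusted p = 0.0298), named after its values were seen. The tetraspanin Cd63 rose by 0.51 ± 0.08 and Slc3a2, which binds beta tails and carries amino acid transporters, by 0.49 ± 0.09.

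Of 52 other tested focal adhesion genes 12 fell (23.1%, against 12.1% of all tested genes) and 1 rose (1.92%, against 7.5%). Among them were Pdlim1, an alpha-actinin partner (40.6 ± 3.16 FPKM under L-proline, 66.1 ± 4.14 under PBS), the FAK relative Ptk2b and the scaffold Iqgap1. Beta-parvin (Parvb) fell as Parva did, to 23.1 ± 1.05 FPKM under L-proline, against 34.8 ± 0.830 FPKM under PBS (-0.58 ± 0.07, limma adjusted p = 0.00151). Lims2, the paralog of Lims1, was lower too (-0.51 ± 0.08, adjusted p = 0.00536), and the gene that rose was the talin-binding Kank2 (0.25 ± 0.07, adjusted p = 0.0342). Lims2 and Kank2 were picked out after their values were seen. The list itself was chosen with earlier results of these data known, so its shares are no independent comparison with all tested genes.

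Among integrin ligands, 7 of 37 tested genes rose (18.9%, against 7.5% of all tested genes) and 13 fell (35.1%, against 12.1%). The ones with the smallest p all fell. Osteopontin (Spp1), a ligand of Itgav with Itgb3, had 1312 ± 202 FPKM under L-proline and 2761 ± 79.99 FPKM under PBS (-1.08 ± 0.11, adjusted p = 0.000751). Vcam1, a ligand of Itga4 with Itgb1, had a log2 fold change of -0.74 ± 0.07, and the matricellular ligands Ccn1 and Ccn2 of -0.63 ± 0.07 and -2.00 ± 0.24. Collagen chains went the other way from the collagen-binding Itga11: 6 of 8 rose and 0 fell, among them Col3a1 at 1824 ± 150.1 FPKM under L-proline and 1226 ± 18.5 FPKM under PBS. Of 8 tested laminin chains 1 fell, Lamb1 (-0.24 ± 0.07, adjusted p = 0.0492), and 0 rose. Collagens and laminins were set apart within the list after their values were seen. The ligand list was also chosen with earlier results of these data known, so its shares describe these genes only. Fibronectin (Fn1), the ligand of Itga5, was 1328 ± 20.96 FPKM under L-proline and 1374 ± 28.6 FPKM under PBS (adjusted p = 0.570).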

How the data were processed

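The labels' protocols state that polyadenylated RNA of left ventricle was made into NEBNext Ultra libraries and read as pairs on a NovaSeq. The authors deposited FPKM values, per the file headers, for 6 libraries. Tools listed by the submitters' processing notes are HISAT2 and HTSeq 0.13.5, with build GRCm39 and no role for each; the annotation and gene lengths are not given in the sources used here, so a member's level depends on an unknown gene model. Groups and replicate numbers came from titles.

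Whole fragments were recovered from the FPKM steps for all 14408 genes (within 0.01 of a whole number), using the 13 mitochondrial coding genes to solve library totals; intervals and floors from them cover counting error only. Tests used limma 3.58.1 in R 4.3.3 with a mean-variance trend, two-sided. The procedure was tested on simulated data with the same dispersion for every gene. It recovered 24.5% of genes changed 1.25-fold and 96% of those changed 1.5-fold. A member that was not called may thus still differ by a small fold. Members that varied widely between libraries may differ by more, as the simulation gave them no wider spread. Lpp, Lims1 and Itgb8, for example, had within-group SDs of 0.48, 0.34 and 0.29 on the log2 scale. Whether counting used strand is unknown, so reads of overlapping genes may not be told apart.

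Alternatives were a pseudocount of 0.1, no filter, median-of-ratios, quantile and equal-sum scaling, sample weights, voom, a replicate block, each library left out, and a removed GC trend. Every member is accounted for; those past the threshold and the most abundant of each class are given per library, and other genes are the 4 of smallest p per list, unless stated. The members and lists were chosen with earlier results of these data known. GC content came from the longest GENCODE M21 transcript, found for 10214 of 10500 tested genes.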

Additional observations from a re-analysis of the deposited data

How the results depend on the processing

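Itga3, Itga6, Itga11 and Itgb3 stayed lower and past the threshold in all 15 alternatives, and Parva in 14, all but the one without PBS 3. Members lower numbered 5 as reported, 9 with equal sums, 8 with the replicate block, 10 with sample weights and 4 to 9 with a library left out. Of adaptors and linkers 1 was lower as reported, 5 with equal sums, 4 with the replicate block, 4 with sample weights, 3 with the GC trend removed and 0 to 3 with a library left out. Members higher numbered 1 (Tln2) with sample weights and 1 with the GC trend removed. Genes gained were Tln1, Vcl, Fermt2 and Bcar1 with equal sums, Vcl, Fermt2 and Vasp with the block, Itgav, Itgb1, Vcl, Fermt2 and Lpp with sample weights, Fermt2 and Bcar1 with the GC trend removed, and Itgav, Itgb1, Vcl and Fermt2 without L-proline 1. The cause was not tested. Over all genes, 366 to 965 were higher and 508 to 1805 lower with a library left out. With equal sums 676 were higher and 1695 lower, and with sample weights 1798 and 2873. With the GC trend removed 1583 were higher and 1568 lower. The median of the integrin chains was -0.30 to -0.15 with a library left out and -0.0876 with the GC trend removed, and that of adaptors and linkers -0.0246 with median-of-ratios scaling.

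Genes near 0 that did not pass changed sign. Itga5 was -0.0460 with equal sums, -0.00597 with sample weights and -0.0715 to 0.0568 with a library left out. Itgb7 was -0.00440 with equal sums and -0.00525 to 0.0845 with a library left out. Actn1 was 0.0173 with median-of-ratios scaling, 0.0515 with sample weights and -0.103 to 0.00568 with a library left out. Lims1 was -0.0885 with sample weights and -0.187 to 0.243 with a library left out. Pxn was 0.0575 with median-of-ratios scaling, 0.0354 with quantile normalization, 0.0261 with sample weights, 0.0248 with the GC trend removed and -0.0253 to 0.0293 with a library left out. Ptk2 was 0.0197 with median-of-ratios scaling and 0.0442 with the GC trend removed. Src was 0.0267 with median-of-ratios scaling, 0.00547 with quantile normalization, 0.0532 with sample weights and -0.0886 to 0.0446 with a library left out.

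Deviations of same-numbered libraries from the group means correlated at 0.65, 0.42 and -0.35 across genes. With 3 libraries per group these deviations are not independent, so the 3 values cannot decide whether same-numbered libraries were paired. The replicate block was therefore read as a shared number only. It gave 908 genes higher and 1475 lower. Depth limits Itga1, Itga4 and Itga8, seen in at most 80 fragments.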
